A study of Mus musculus with 6 samples.

Results

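The genes described here are the potassium channel genes, taken as every gene of the expression table whose mouse symbol starts with Kcn except the noncoding Kcnq1ot1. They number 59 of 22246 genes, and 58 are protein coding. The exception, Kcnmb4os2, is a noncoding antisense transcript that carries the name start. By the naming convention they divide into 20 voltage-gated pore subunits, 8 inward rectifiers, 7 K2P leak channels, 7 channels opened by internal calcium or sodium or by pH, and 16 auxiliary subunits. Levels of mRNA were measured by sequencing in HL-1 cells, an established line from mouse atrial cardiomyocytes whose labels give the strain C57BL/6 and the tissue heart. Of 6 libraries, 3 were controls that received a control hairpin (short hairpin RNA, shRNA) and 3 received an shRNA against Smyd4, a gene for a SET and MYND domain protein. Nothing in the labels names the hairpin sequence, the time after delivery, or whether the samples within a group were grown as separate cultures. The p-values therefore reflect the spread among these samples alone, and that spread may be technical.

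Potassium channels let potassium leave or enter the cell along its gradient and thereby set the resting potential and end the action potential. In heart muscle, inward rectifiers hold the resting potential, and voltage-gated channels with their auxiliary subunits repolarize the cell after each beat. Leak channels of the K2P family carry a background current, and calcium-activated channels couple the membrane potential to internal calcium. Measurements here are of mRNA only, not of protein or current.

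Between 20755856 and 26387606 reads per library were assigned to genes, as recovered from the deposited values. Smyd4 mRNA stood at 12.5, 12.8 and 13.5 FPKM (fragment counts divided by gene length in kilobases and scaled for depth) in the control libraries. Against these, the libraries labelled Smyd4 shRNA held 12.6, 12.3 and 11.9 FPKM, so the groups overlapped (limma, adjusted p = 0.173). The target's mRNA therefore does not bear out the label, and every direction below is relative to the label alone. The labelled cell type could be checked against 9 atrial markers, of which 7 were in the table. Of these 7, Tnnt2 alone passed 1 FPKM (7.11 and 11.7 FPKM), while Myh6, Myl7, Actc1, Ryr2 and Pln lay below 0.1 FPKM in both group means. Myl4 stood at 0.180 and 0.201 FPKM. Apart from Tnnt2, these markers thus did not bear out the labelled cell type. Of 11325 genes tested, limma placed 2839 higher and 2635 lower, and 2200 higher and 3113 lower when each library was scaled to an equal sum.

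Among the potassium channel genes that averaged at least 1 FPKM, the largest change was in an inward rectifier gene. Kcnj2, which encodes the main subunit of the current that holds the resting potential of heart muscle, went from 4.32 ± 0.131 to 0.0877 ± 0.0320 FPKM (SD, n = 3), 49.2-fold lower. Kcnab2, an auxiliary subunit of Kv1 channels, rose 2.67-fold. Kcnh2, which encodes the pore of the rapid delayed rectifier current of heart muscle, rose 2.17-fold. Kcnk12, a K2P subunit, rose 1.93-fold, and Kcnc2, a Kv3 pore subunit known from fast-firing neurons, was 2.01-fold lower. The most abundant member, the calcium-activated channel gene Kcnn4, stood at 19.1 ± 0.208 and 18.9 ± 0.415 FPKM.

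Promoter sequence is shown for genes that averaged at least 1 FPKM: the largest fall, the largest rise by fold, the K2P gene that rose most, and Kcnj16, which lies next to Kcnj2 and changed the other way. The sequences are the 250 bases before the transcription start of RefSeq genes on GRCm38.p6, each written 5′ to 3′ on the gene's own strand. Capitals mark GGGCGG or its reverse complement, the GC box.
Kcnj2, chr11:111065914-111066163, plus strand: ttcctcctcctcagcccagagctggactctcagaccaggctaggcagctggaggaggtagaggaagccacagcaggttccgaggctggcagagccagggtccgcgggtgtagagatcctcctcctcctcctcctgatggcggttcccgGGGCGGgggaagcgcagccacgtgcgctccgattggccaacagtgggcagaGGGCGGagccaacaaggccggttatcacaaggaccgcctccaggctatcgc
Kcnj16, chr11:110967783-110968032, plus strand: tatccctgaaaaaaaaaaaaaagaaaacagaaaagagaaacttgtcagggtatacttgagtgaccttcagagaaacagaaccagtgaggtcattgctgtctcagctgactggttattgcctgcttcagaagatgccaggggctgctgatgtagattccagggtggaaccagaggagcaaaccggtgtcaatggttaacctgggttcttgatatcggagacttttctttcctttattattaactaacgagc
Kcnab2, chr4:152477550-152477799, minus strand: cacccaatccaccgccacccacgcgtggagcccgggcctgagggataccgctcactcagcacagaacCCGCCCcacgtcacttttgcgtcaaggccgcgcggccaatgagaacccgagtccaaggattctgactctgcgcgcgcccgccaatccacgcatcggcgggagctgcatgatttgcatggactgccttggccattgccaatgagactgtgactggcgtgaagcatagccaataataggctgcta
Kcnk12, chr17:87797995-87798244, minus strand: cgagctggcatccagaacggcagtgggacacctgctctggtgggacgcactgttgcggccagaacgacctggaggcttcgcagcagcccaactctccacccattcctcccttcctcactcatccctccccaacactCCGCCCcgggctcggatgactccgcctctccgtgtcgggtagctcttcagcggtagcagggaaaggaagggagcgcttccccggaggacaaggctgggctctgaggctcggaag

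These windows were searched on both strands for the GC box, the TATA box TATAAA, the AP-1 site TGANTCA, the CRE site TGACGTCA and the NF-kB consensus. The Kcnj2 window held 2 GC boxes, the Kcnab2 and Kcnk12 windows 1 each and the Kcnj16 window 0, and a GC box was present in 32.7% of 32851 promoter windows of this length. None of the other 4 motifs occurred in these 4 windows, and they are present in 12.4%, 6.75%, 1.55% and 7.25% of all windows. The Kcnj2, Kcnab2 and Kcnk12 windows held 14, 20 and 16 CpG dinucleotides and the Kcnj16 window 3, against a median of 6 over all windows. Among windows not shown, those of Kcnn4, Kcnk5, Kcnf1, Kcnk2 and Kcnc2 held 6, 19, 1, 5 and 5 CpG dinucleotides. Their GC boxes numbered 1, 3, 0, 0 and 0, and the Kcnn4 window held 1 NF-kB match. A link between these features and the changes in level was not tested. For Kcnab2 the RefSeq start lies 322 bases inside the gene as the authors' table bounds it, so its window falls within that gene. The RefSeq window found for Kcnh2 lies 22013 bases from its gene start and was not used.

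Of the 59 members, 10 averaged 1 FPKM or more across all 6 libraries and were tested, 6 lay between 0.2 and 1 FPKM and 43 lay below 0.2 FPKM. Only 2 of the 10, Kcnj2 and Kcnc2, passed that filter through the control libraries alone. In limma on log2(FPKM + 0.5), with Benjamini-Hochberg adjustment over all tested genes, 5 members were higher, 3 were lower and 2 did not pass. Over all tested genes 48.3% passed, 25.1% higher and 23.3% lower. The median log2 change of the 10 tested members was 0.17 against 0.02 over all tested genes, and the median size of the change without its sign was 0.55 against 0.13. Since Kcnj2 and Kcnc2 entered through the controls, these figures describe the members that passed and are read no further. The 3 libraries of one group all lay above those of the other in 8 of the 10, as they did in 57.8% of all tested genes (30.2% higher and 27.6% lower in the labelled libraries).

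**Figure D1:**
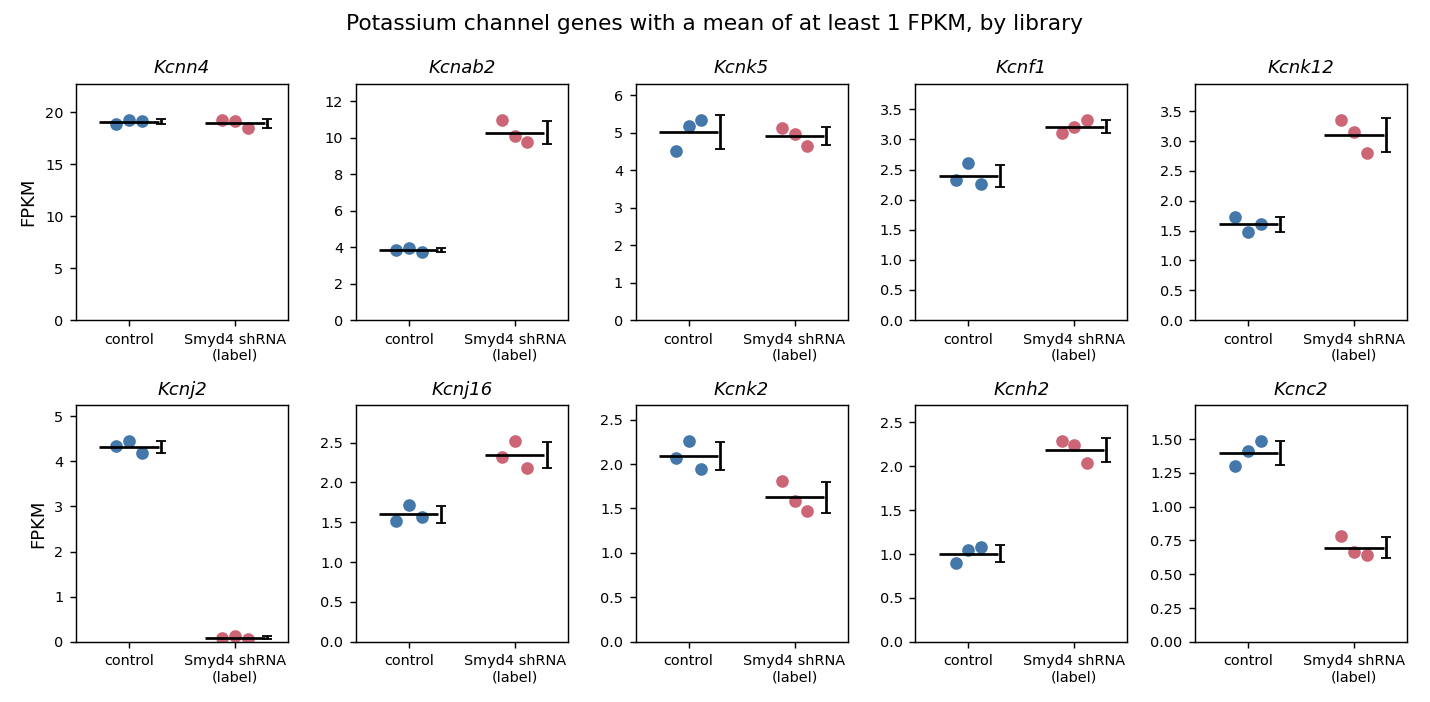
Level in FPKM (vertical axis, from 0) of the 10 potassium channel genes that averaged 1 FPKM or more, 1 point per library, with the mean (line) and SD (bar, n = 3) of the control and labelled Smyd4 shRNA groups. Kcnj2 is close to 0 in the labelled libraries, 5 genes lie wholly above their controls, and Kcnn4 and Kcnk5 overlap.

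Inward rectifiers pass potassium more easily into the cell than out of it. Kcnj2 (ENSMUSG00000041695, chromosome 11, 111066164 to 111076821 of GRCm38) encodes the Kir2.1 subunit. It stood at 4.33, 4.44 and 4.18 FPKM in the controls, against 0.0773, 0.124 and 0.0621 FPKM under the Smyd4 shRNA label. All labelled libraries were thus far below all controls, with 7 to 17 reads each against 564 to 577. The log2 change was -3.04, with 0.09 as its standard error, SE (limma, adjusted p = 1.3e-07). This scale understates the change of a gene so near 0, and edgeR on the recovered reads gave a log2 change of -5.59 (adjusted p = 6.1e-24). Kcnj2 passed both filters through the control libraries alone, so these p-values are read no further.

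Kcnj16 (chromosome 11, 110968033 to 111027968) encodes Kir5.1, a subunit that works mainly together with other inward rectifier subunits. Its levels were 1.52, 1.72 and 1.56 FPKM in the control libraries and 2.32, 2.51 and 2.18 FPKM in the labelled libraries. The groups did not overlap, and the log2 change was 0.44 with SE 0.08 (limma, adjusted p = 0.0020). Kcnj16 and Kcnj2 lie on the same strand of chromosome 11 with 38.2 kb between them and no other gene of the expression table in that interval. Neighbouring genes of one family thus changed in opposite directions.

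Kcnj12, which encodes Kir2.2, the close relative of Kir2.1 that also carries the resting current of heart muscle, had too low a mean (0.358 FPKM) for the limma test. It stood at 0.243, 0.230 and 0.158 FPKM in the controls and at 0.626, 0.331 and 0.562 FPKM in the labelled libraries, from 11 to 16 and 23 to 45 reads. All 3 labelled libraries were higher, and edgeR on recovered reads called it higher (log2 change 1.25, adjusted p = 0.0010). The rise did not offset the fall of Kcnj2 in level. The summed inward rectifier mRNA went from 6.43 ± 0.177 to 3.10 ± 0.122 FPKM, 2.07-fold lower, and the groups did not overlap.

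The make-up of this class changed with its level. Kcnj2 made up between 66.7% and 67.8% of the summed inward rectifier FPKM among controls and from 2.08% to 3.98% in the labelled libraries. Kcnj16 went from a mean of 24.9% to 75.4% and Kcnj12 from 3.27% to 16.3%. Of the other members of the class, Kcnj13, Kcnj14, Kcnj15 and Kcnj9 stood at group means of at most 0.129 FPKM, and Kcnj8, the pore gene of ATP-sensitive channels in vessels, had 2 reads in all 6 libraries.

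**Figure D2:**
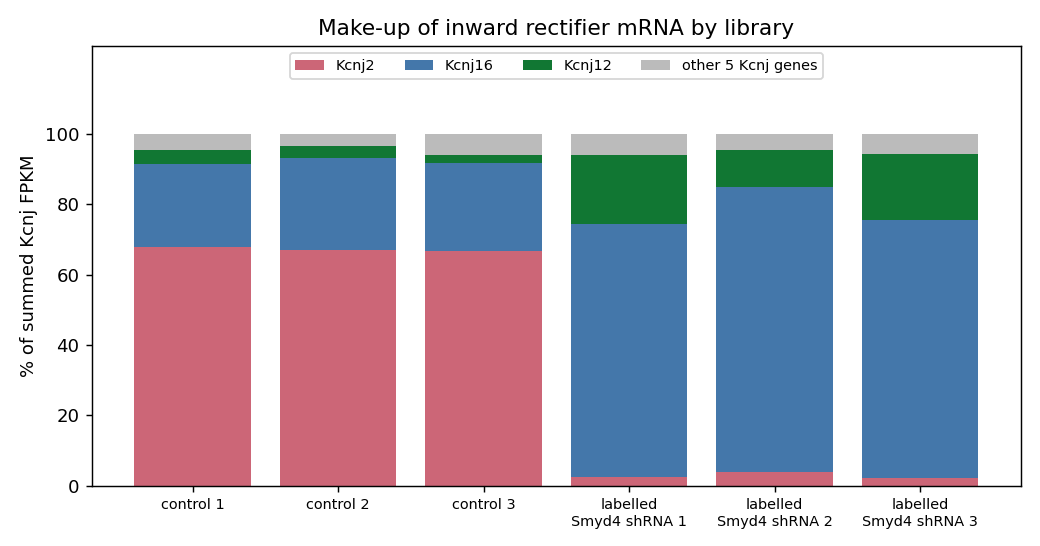
Share of each inward rectifier gene in the summed Kcnj FPKM (vertical axis, percent) in each of the 6 libraries. Kcnj2 holds about 67% in the controls and under 4% in the labelled libraries, where Kcnj16 holds over 72%.

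Voltage-gated channels open on depolarization and repolarize the cell. Kcnh2 (chromosome 5, 24319589 to 24351604) encodes ERG, the pore of the rapid delayed rectifier current and a known site of long QT syndrome in people. It stood at 0.897, 1.05 and 1.07 FPKM in the control libraries and at 2.28, 2.24 and 2.03 FPKM in the labelled libraries. Every labelled library was above every control (log2 change 0.84, SE 0.08; limma, adjusted p = 0.000111). Reads per library went from 104 to 132 in the controls and from 204 to 289 in the labelled libraries.

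Kcnf1 (chromosome 12) encodes Kv5.1, a silent subunit that forms no channel alone and modifies Kv2 channels. It was the most abundant voltage-gated member, at 2.32, 2.61 and 2.26 FPKM in the controls and 3.11, 3.21 and 3.33 FPKM in the labelled libraries. The rise was 1.34-fold with no overlap (log2 change 0.36, SE 0.06; limma, adjusted p = 0.0024). Kcnb2, a Kv2 pore gene, had 3 reads over all 6 libraries.

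Kcnc2 (chromosome 10) encodes the Kv3 pore subunit Kv3.2. Its levels were 1.30, 1.41 and 1.48 FPKM in the controls and 0.784, 0.664 and 0.639 FPKM in the labelled libraries. The labelled libraries all lay lower (log2 change -0.67, SE 0.10; limma, adjusted p = 0.000857). Its mean lies just above the filter, and with any 1 control library left out it fell below it and was not tested. Kcnc2 passed the limma filter through the control libraries alone, so its limma p-value is read no further. In edgeR, which has a lower filter, the log2 change was -1.01 (adjusted p = 9.4e-09). The summed voltage-gated mRNA stood at 5.85 ± 0.320 FPKM in the controls and 6.55 ± 0.196 FPKM in the labelled libraries, and within it the share of Kcnh2 went from 17.2% to 33.3% and that of Kcnc2 from 23.9% to 10.6%.

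**Figure D3:**
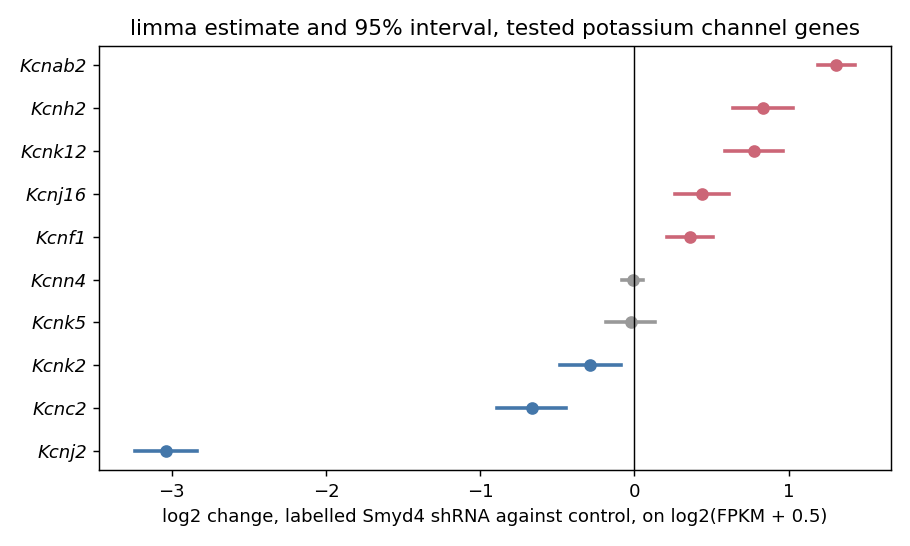
Log2 change of each tested potassium channel gene between the labelled Smyd4 shRNA and control libraries on the log2(FPKM + 0.5) scale (horizontal axis), as the limma estimate (point) and its 95% interval (line), red for called higher, blue for called lower and grey for not called. Kcnj2 stands at -3.04 and Kcnab2 at 1.31, and the intervals of Kcnn4 and Kcnk5 cover 0.

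The K2P channels conduct at rest and are gated by pH, stretch and lipids rather than voltage. Kcnk5 encodes a pH-sensitive K2P channel. It was the most abundant of them, at 4.50, 5.18 and 5.35 FPKM in the controls and 5.12, 4.96 and 4.64 FPKM in the labelled libraries. The groups overlapped, and the log2 difference was -0.02 with a 95% interval from -0.18 to 0.13 (limma, adjusted p = 0.790).

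Kcnk12 (chromosome 17, 87745837 to 87797994) encodes a K2P subunit of the THIK type. It went from 1.73, 1.48 and 1.61 FPKM to 3.36, 3.15 and 2.79 FPKM, with no overlap (log2 change 0.77, SE 0.08; limma, adjusted p = 0.000139). Kcnk2, which encodes the stretch- and lipid-gated channel TREK, stood at 2.07, 2.25 and 1.94 FPKM in the controls. The labelled libraries held 1.81, 1.59 and 1.48 FPKM, below all controls by a smaller margin than the other called members (log2 change -0.29, SE 0.09; limma, adjusted p = 0.0259). That call was lost without control replicate 1 (adjusted p = 0.0637) or 2 (0.0918), and without replicate 2 (0.0660) or 3 (0.0749) of the labelled libraries, all in limma. The summed K2P mRNA was 8.84 ± 0.428 and 9.86 ± 0.749 FPKM, with Kcnk12 making up 18.2% and 31.4% of it.

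Calcium-activated channels were represented mainly by Kcnn4, the intermediate-conductance channel that opens when calcium binds its calmodulin. Kcnn4 (chromosome 7, 24370263 to 24386690) held 18.9, 19.3 and 19.2 FPKM in the controls and 19.2, 19.1 and 18.5 FPKM in the labelled libraries. The groups overlapped and the log2 difference was -0.01 with a 95% interval from -0.08 to 0.05 (limma, adjusted p = 0.748), from 1955 to 2567 reads per library. It alone made up 40.7% of the summed FPKM of all 59 members in the controls and 37.0% in the labelled libraries. Kcnn1, a small-conductance relative, stood at 0.536 and 0.684 FPKM with overlapping groups (edgeR log2 difference 0.33, adjusted p = 0.132). The large-conductance channel Kcnma1 stood at 0.0628 and 0.0898 FPKM (edgeR log2 difference 0.46, adjusted p = 0.340).

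Auxiliary subunits bind pore subunits and alter their traffic and gating. Kcnab2 (chromosome 4, 152390742 to 152477871) encodes a Kv beta subunit that belongs to the aldo-keto reductases and binds Kv1 channels. It held 3.86, 3.95 and 3.73 FPKM in the controls and 10.99, 10.1 and 9.74 FPKM in the labelled libraries. All labelled libraries were more than 2-fold above all controls (log2 change 1.31, SE 0.05; limma, adjusted p = 6.0e-07). Its reads went from between 515 and 528 to between 1125 and 1602. Of its relatives, Kcnab3 stood at 1.09 ± 0.0220 and 0.828 ± 0.117 FPKM, just below the limma filter in mean, and Kcnab1 at about 0.10 FPKM in both group means. In edgeR Kcnab3 was called lower (log2 change -0.40, adjusted p = 0.0457). That call was lost in DESeq2 (adjusted p = 0.219) and without any 1 of the 3 control libraries (edgeR, 0.0813, 0.107 and 0.101). It was lost as well without replicate 2 (edgeR, adjusted p = 0.178) or 3 (0.109) of the labelled libraries.

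Kcnab2 overlaps Gm16334 on its own strand, listed at 0 FPKM in the controls and 0.0380 FPKM in the labelled libraries, and Nphp4 on the other strand outside its exons. Summed auxiliary mRNA went from 5.98 ± 0.114 to 11.9 ± 0.802 FPKM, 1.99-fold higher, and Kcnab2 made up 64.4% and 86.3% of it. The Kv1 pore genes that Kcnab2 is known to bind were low or lower. Kcna3 and Kcna4 are described below, and Kcna1 and Kcna2 had 3 reads each and Kcna7 at least 4 over all 6 libraries.

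**Figure D4:**
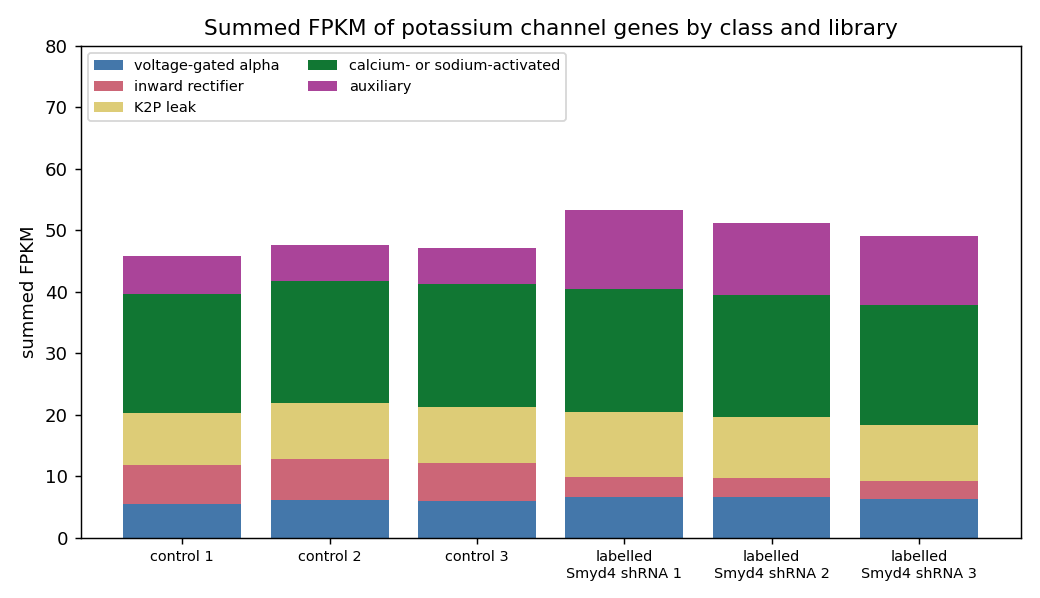
Summed FPKM (vertical axis) of the 5 classes of potassium channel genes in each of the 6 libraries, stacked. The auxiliary part is about 1.99-fold higher and the inward rectifier part 2.07-fold lower in the labelled libraries, while the calcium- or sodium-activated part stays between 19.4 and 19.98 FPKM in all 6 libraries.

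Members below 1 FPKM were read by edgeR on the recovered reads, which tested 11 of these 49 genes. It called 2 higher and 4 lower, and among all genes below 1 FPKM in its test 35.4% were called, 9.66% higher and 25.7% lower. Over all members edgeR tested 21 and called 7 higher and 7 lower, against 23.3% higher and 26.3% lower among all genes it tested. Below 1 FPKM the higher ones were Kcnj12 and Kcnh3, and the lower ones Kcna3, Kcna4, Kcnd1 and Kcnab3. Of the called members, Kcnj2, Kcna3, Kcna4 and Kcnd1 passed edgeR's filter through the control libraries alone and Kcnh3 through the labelled libraries alone. These counts, and the edgeR p-values of these genes, therefore describe the members that passed and are read no further. A lower level in bulk RNA does not tell fewer expressing cells from less RNA per cell.

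Kcna3 and Kcna4 encode Kv1 pore subunits. Kcna3, known best from lymphocytes, held 0.396, 0.399 and 0.435 FPKM in the controls and 0.0402, 0.125 and 0.0254 FPKM in the labelled libraries. These rest on 57 reads over the controls and 9 over the labelled libraries (edgeR log2 change -2.60, adjusted p = 2.9e-05). Kcna4, which carries a fast inactivating current in heart, held 0.199, 0.244 and 0.131 FPKM in the controls and was listed at 0 in all 3 labelled libraries. The controls held 67 reads of Kcna4. With an assumed floor of 3 reads over the labelled group, its mean was at least 22.2-fold lower there. That figure is a bound set by the assumed floor and carries no error on the 67 reads. In edgeR the gene was called lower (adjusted p = 5.2e-08). Groups did not overlap for either gene.

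Kcnd1 encodes a Kv4 pore subunit of transient outward current, and stood at 0.198, 0.144 and 0.254 FPKM in the controls and 0.101, 0.0524 and 0.0457 FPKM in the labelled libraries. All labelled libraries were lower (edgeR log2 change -1.54, adjusted p = 0.000617). Kcnh3, a brain relative of Kcnh2, held 0.0583, 0.106 and 0.132 FPKM in the controls and 0.331, 0.331 and 0.175 FPKM in the labelled libraries (edgeR log2 change 1.4998, adjusted p = 0.000949). Exons of Kcnh3 overlap Mcrs1 on the other strand, a gene at 36.4 and 31.0 FPKM. The strand setting of the counting was not stated, so the Kcnh3 value may hold reads of that neighbour.

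The authors' deposited table lists 17 of the 59 members, 7 higher and 10 lower, while it lists 25.2% of all genes of the expression table. The 17 are the 8 members called by limma here, 5 of the 6 called by edgeR below 1 FPKM, Kcnab3 being absent, and 4 more below 0.2 FPKM. In the authors' deposited table Kcnj2 has a log2 fold change of -4.45 and Kcnab2 of 1.39. The 4 others are the BK channel beta subunits Kcnmb1 and Kcnmb2, the Eag channel Kcnh1 and the small-conductance channel Kcnn3, with log2 fold changes between -0.63 and -0.42 in the authors' deposited table. DESeq2 on recovered reads gave larger log2 changes for the same 4 genes, between -4.84 and -2.18. How the authors' values were estimated was not given, so the 2 sets are not on a known common scale. Each of the 4 genes rests on few reads. Kcnmb2 had 31 reads in the controls and 1 in the labelled libraries (ratio 30.6, 95% exact counting interval from 5.10 to 1248), and Kcnn3 had 21 and 1 (ratio 20.7, interval from 3.34 to 858). Kcnh1 had 30 and 2 (ratio 14.8, interval from 3.76 to 128) and Kcnmb1, known from smooth muscle, 33 and 7 (ratio 4.66, interval from 2.03 to 12.5). These intervals cover counting error only. The 4 genes were taken because the authors' deposited table lists them as lower in these same libraries, so the intervals are read no further. DESeq2 on recovered reads called all 4 lower, with adjusted p between 0.0023 and 0.0340, and of 35 members with an adjusted p it called 7 higher and 10 lower. Over all genes with an adjusted p it called 15% higher and 17.6% lower. Kcnmb2, Kcnn3, Kcnh1 and Kcna4 have nearly all their reads in the controls, so these counts too are read no further.

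**Figure D5:**
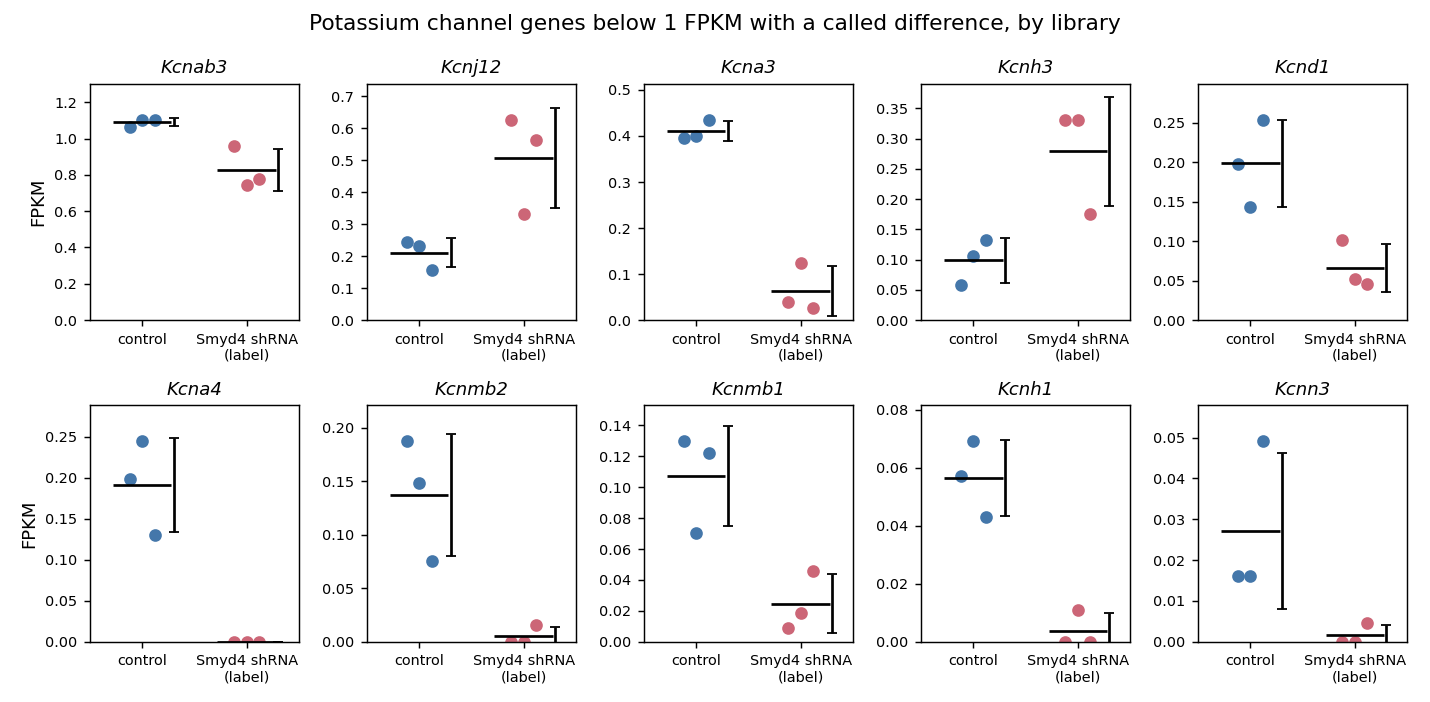
Level in FPKM (vertical axis, from 0) of the 10 members below 1 FPKM that edgeR called or the authors' table lists, 1 point per library, with the mean (line) and SD (bar, n = 3). Kcnj12 and Kcnh3 are higher and the other 8 lower in the labelled libraries, and Kcna4 is at 0 in all 3 of these.

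The remaining low members gave levels only. Kcnip4, a calcium-binding partner of Kv4 channels, stood at 0.234 and 0.168 FPKM with non-overlapping groups (edgeR log2 difference -0.48, adjusted p = 0.198), and its exons overlap 5730480H06Rik on the other strand, which stood at 1.56 and 1.34 FPKM. Kcnip3, of the same family, stood at 0.119 and 0.146 FPKM. Kcnrg, a soluble regulator of Kv assembly, stood at 0.191 and 0.238 FPKM. Between these and the detection limit, 24 members had at most 10 recovered reads over all 6 libraries, a number that is a lower bound for those whose length was not known. Among them were genes of well-known heart currents. Kcnq1, the pore of the slow delayed rectifier, had 2 reads in all, its partner Kcne1 had at least 4, the transient outward pore gene Kcnd3 had 2 and its partner Kcnip2 had 3. Over all 59 members the groups did not overlap in 22, 7 higher and 15 lower in the labelled libraries, while among all genes measured 38.7% did not overlap, with 18.4% wholly higher and 20.3% wholly lower.

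Markers of other cell types moved between the same groups. Their calls are from limma, which called 25.1% higher and 23.3% lower over all tested genes. Summed over the 5 neuron markers in the table, levels lay between 150 and 158 FPKM in the controls and between 29.7 and 31.6 FPKM in the labelled libraries, and all 4 tested members were lower. The 5 skeletal muscle markers in the table summed to between 79.2 and 81.9 FPKM in the controls and 15.2 and 17.0 FPKM in the labelled libraries, with all 3 tested lower. The 4 smooth muscle markers summed to between 301 and 315 and between 197 and 205 FPKM, with both tested members lower, and the 7 fibroblast markers to between 239 and 246 and between 270 and 282 FPKM, with 2 of 5 tested higher and 2 lower. The 5 macrophage markers summed to between 28.9 and 30.4 and between 19.5 and 21.3 FPKM, nearly all of it Cd14, while Adgre1 and Ptprc were at 0 in the controls and below 0.01 FPKM in the labelled means. The 4 endothelial markers summed to at most 0.567 FPKM in any library. The neuron marker Syt1 stood at 0.222 and 0.0260 FPKM and the muscle marker Myog at 0.246 and 0.0196 FPKM. Their part in the potassium channel results was not tested.

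Potassium is returned to the cell by the sodium pump and moved by cotransporters, and these genes were examined beside the channels. Of 17 listed pump and cotransporter genes, 15 were in the table and 9 were tested, with 6 higher and 3 lower in limma (median log2 change 0.21), beside 25.1% higher and 23.3% lower and a median of 0.02 over all tested genes. The pump subunit Atp1b1 held 7.75, 8.33 and 7.01 FPKM in the controls and 13.4, 12.9 and 13.0 FPKM in the labelled libraries (log2 change 0.73; limma, adjusted p = 2.6e-05). The labelled libraries were all above the controls. Atp1b3, another pump subunit (64.2 to 73.8 FPKM), the pump regulator Fxyd5 (8.63 to 10.1 FPKM) and the potassium-chloride cotransporter Slc12a7 (10.8 to 14.9 FPKM) also rose. The cotransporters Slc12a2 (16.6 to 14.2 FPKM) and Slc12a4 (15.8 to 13.7 FPKM) fell. For these named changes the limma adjusted p lay between 2.6e-05 and 0.0141.

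Genes for channel partners and scaffolds were examined in the same way. Of 23 listed, 17 were in the table and 13 were tested. In limma 2 of these rose, 3 fell and 8 missed the threshold (median log2 change -0.05), beside 48.3% called over all tested genes. The membrane anchor Ank2 rose from 1.05 ± 0.0453 to 1.71 ± 0.0543 FPKM and the scaffold Dlg1 from 11.7 to 12.9 FPKM. The anchor Ank3 fell from 1.30 ± 0.0270 to 0.952 ± 0.0110 FPKM and the scaffold Cask from 7.67 to 6.89 FPKM, with limma adjusted p between 0.00101 and 0.0185 for these 4 genes. Calm2 and Calm3, which encode the calmodulin that Kcnn4 carries, stood at 354 and 200 FPKM in the controls and 342 and 205 FPKM in the labelled libraries and did not pass. Abcc9, the partner of Kcnj8, lay below 0.01 FPKM in both group means.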

How the data were processed

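Values were the FPKM of 22246 Ensembl genes in 6 libraries, deposited by the authors. Per the submitters' processing notes, tools included TopHat2 2.0.9 and Bowtie2 2.0.6 with build GRCm38. Counter, annotation, strand setting and statistical test: not given in the sources used here. A second deposited table holds, for 5616 genes, a normalized signal and the authors' own log2 fold changes, p-values and adjusted p-values. Dividing whole reads by a library-specific size factor gives that signal: 100% of values were whole multiples of 1 step within 1e-04. FPKM equals signal over gene length times 1 constant, so whole reads were recovered for 100% of FPKM values within 0.01. Outside the 5616 genes with the authors' lengths, the length was chosen to give whole reads, so there this share is no check. Gene lengths came from the authors for 5616 genes, from GENCODE M21 for 13309, and were the smallest possible for 3321, whose reads are lower bounds. Kcnk5, Kcnn1, Kcnma1, Kcnrg, Kcnj14, Kcnj15, Kcna7 and Kcne1 are among the latter.

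Symbols matched by Ensembl identifier for 22134 genes. Groups were compared with limma 3.58.1 (trend) in R 4.3.3 on log2(FPKM + 0.5) for genes averaging 1 FPKM or more, Benjamini-Hochberg adjusted at 0.05. Recovered reads were tested with edgeR 4.0.16 (TMM, quasi-likelihood), calling 6824 of 13775 genes, and DESeq2 1.42.0, calling 5565 of 17068. The code was tested on simulated data. Every tested member was named, as was each untested member with a mean of at least 0.2 FPKM; other genes below that level were chosen after their values were seen. Members and lists were chosen with earlier results of these data known. Alternatives were other pseudocounts, filters, scalings, tools, a replicate block and leaving out each library. Promoters came from RefSeq (GRCm38.p6), which held 45 of the 59 members. Gene positions refer to GRCm38 and come from the authors' deposited table, or from GENCODE M21 otherwise. Values of some listed genes are not reported here.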

Additional observations from a re-analysis of the deposited data

How the results depend on the processing

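The count of members called higher was 5 in limma and stayed within 1.5 times of that under all 15 alternatives. The count called lower was 3 and became 9 without a filter on low values, 7 in edgeR and 10 in DESeq2, which test more low genes. Over all genes, limma called 2635 of 11325 lower. That became 3037 of 22246 without the filter, 3620 of 13775 in edgeR and 3010 of 17068 in DESeq2. Genes called higher numbered 2839, 2582, 3204 and 2555 in the same order. With 1 library left out, between 1 and 3 members were called lower in limma. It was 1 without control replicate 1 and without control replicate 2, where Kcnc2 fell below the filter and Kcnk2 did not pass. Over all genes, these limma fits called between 2297 and 2568 higher and between 2239 and 2453 lower. For members below 1 FPKM, alternatives were chosen after seeing the data. There, edgeR's 2 higher calls stayed at 2. Its 4 lower calls became 7 in DESeq2 and between 3 and 7 with 1 library left out, the 7 when labelled replicate 1 was left out. No share over all genes below 1 FPKM was taken for these alternatives, so these counts are read no further. Among uncalled genes, leaving out 1 library gave log2 differences from -0.022 to 0.0054 for Kcnn4, from -0.093 to 0.020 for Kcnk5 and, in edgeR, from -0.19 to 0.097 for Kcnab1. These turned without labelled replicate 3 for all 3 genes and also without control replicate 3 for Kcnk5. Kcnk2 also missed the threshold without a filter (limma, adjusted p = 0.0722; range over 15 alternatives 0.0023 to 0.0918). With the replicate block in limma 5 members were higher and 3 lower, as without it, and edgeR lost Kcnab3 with the block (adjusted p = 0.0525). Over all genes, limma with the block called 2667 higher and 2474 lower of 11325. Same-numbered libraries shared only a number: their deviations from the group means had correlations of -0.03, 0.02 and 0.01. For members with few reads, counting error limits what can be seen.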

Other observations

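Transcription factors known to act on potassium channel genes were read from a list of 6 that also held Kcnq1ot1. Of 4 tested, 1 was higher and 2 lower in limma, beside 25.1% higher and 23.3% lower over all tested genes. Irx3, a homeobox factor of the ventricular conduction system, held 5.59, 5.06 and 4.79 FPKM in the controls and 1.66, 1.70 and 2.02 FPKM in the libraries labelled Smyd4 shRNA (log2 change -1.30, adjusted p = 6.8e-06). Rest, a repressor of neuronal genes, fell from 11.8 ± 0.217 to 8.07 ± 0.180 FPKM (limma, adjusted p = 8.9e-06). Irx5 stood at 5.45 and 4.50 FPKM and did not pass (limma, adjusted p = 0.0932), and Tbx5 was at 0 in the controls and 0.0112 FPKM in the labelled mean. Kcnq1ot1, the noncoding RNA of the imprinted Kcnq1 region, stood at 0.0368 and 0.0295 FPKM. Of 4 pacemaker channel genes 3 were in the table, and Hcn2 was the highest at 0.264 and 0.213 FPKM, so none was tested.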
